A study of Mus musculus with 36 samples.

Results

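Kidneys that carried both a tubular deletion of the clock gene Bmal1 and streptozotocin (STZ) diabetes were compared with kidneys that carried neither. The comparison rests on 18 of the 36 whole-kidney RNA libraries of the study, 9 labelled STZ-treated KO and 9 labelled PBS-treated Control. They were chosen by their labels alone. The knockout mice, called cKOt, had the genotype Bmal1 lox/lox /Pax8-rtTA/LC1, in which doxycycline (DOX) switches on Cre recombinase in cells that express Pax8, the tubular epithelium of the kidney. All controls were Bmal1 lox/lox littermates without these transgenes in their stated genotype, so every animal had floxed Bmal1 alleles. Every animal also drank DOX at 2 mg/ml for 2 weeks, from an age of 8 weeks. At 1 week after DOX, STZ, a toxin of pancreatic beta cells, was injected intraperitoneally at 50 mg/kg per day for 5 days. The other animals received injections of phosphate-buffered saline (PBS). The kidneys were sampled at ZT9, in hours after lights on, 8 weeks after the injections ended. The remaining groups, 9 PBS-treated KO and 9 STZ-treated Control libraries, served to split the difference into its parts. STZ-cKOt stands below for both changes, PBS-control for neither, STZ-control for STZ alone and PBS-cKOt for the deletion alone. The deletion is aimed at the tubule, so vessels and leukocytes of a cKOt kidney are not its intended target. Where the deletion took place was not tested here. Blood glucose was not analysed here.

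BMAL1, the protein of Arntl, pairs with CLOCK or NPAS2 and switches on genes with an E-box in their promoter. Among these are its own repressors PER, CRY and REV-ERB and the transcription factors DBP, TEF and HLF, which act through D-boxes on genes of detoxification and metabolism. REV-ERB in turn represses Arntl, Npas2, Cry1 and Nfil3 through a site called RORE. In diabetes, filtered glucose and the hormones of insulin deficiency reach the same tubule cells, and the proximal tubule both reabsorbs glucose and makes it.

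The 18 libraries held between 18.3 and 22.1 M reads assigned to genes. All levels below given in CPM are counts per M reads assigned to the genes kept for testing, after TMM scaling between libraries. Mitochondrial genes took 16.4% ± 2.11 of reads in PBS-control and 15.8% ± 1.71 in STZ-cKOt (mean ± SD over 9 libraries). In the library labelled STZ-control 2, which is not among the 18, Arntl was read at 13.4 CPM, at the level of the knockout libraries. It was kept under its label and enters the parts of the difference described below. Other clock genes of STZ-control 2 also stood near knockout levels, and are not given per library here. On the first principal component it lay at −11.69, among the control libraries (−26.2 to −6.01) and apart from the cKOt libraries (8.28 to 25.65). For Cyp2a4, Ppard and Aqp8, given below, every STZ-control library stood clear of all knockout libraries. Whether the label is right was not tested. The libraries STZ-control 7 and 8 and PBS-cKOt 1 and 3 stood apart from the rest on the second principal component.

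Arntl itself (ENSMUSG00000055116, chr7:113207465-113314126, GRCm38) was read at 1.09, 1.91 and 2.40 CPM in PBS-control and at 13, 14.3 and 17.1 CPM in STZ-cKOt, given here and below as the lowest, the median and the highest of 9 libraries. The groups did not overlap, and the knockout libraries were the higher ones. The difference was 2.92 ± 0.29 on the log2 scale (± SE; edgeR quasi-likelihood test, adjusted p = 1.57e-10). The count takes in exons outside the deleted part, so it sets the groups apart but does not check the deletion.

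Across the transcriptome, 4606 of 15637 tested genes, 29.5%, differed between STZ-cKOt and PBS-control at an adjusted p under 0.05. Of these, 2297 genes (14.7%) were higher in STZ-cKOt and 2309 (14.8%) lower, and 313 and 312 of them differed by at least 2-fold (2.00% in each direction). In 539 genes (3.45%) every STZ-cKOt library was above every PBS-control library, and in 733 (4.69%) every one was below. In this balanced design the log2 difference is the sum of 2 parts, the genotype effect averaged over both treatments and the treatment effect averaged over both genotypes. Of the 4606 genes, 2129 (46.2%) passed the test for the genotype effect alone, 989 (21.5%) for the treatment effect alone, 994 (21.6%) for both in the same direction and 88 (1.91%) for both in opposed directions. For the remaining 406 (8.81%) neither part passed by itself.

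Genes that ended farther out were those in which STZ-cKOt differed in the same direction from each of the other groups. There were 504 of them (3.22% of tested genes), 162 higher (1.04%) and 342 lower (2.19%). Without the library STZ-cKOt 9 there were 108 higher. Among the 504, 56 (0.358% of tested genes) were higher and 103 (0.659%) lower by at least 2-fold than in PBS-control. Of the 504, 415 (82.3%) passed for both parts with the same sign, and these 415 were 41.8% of all 994 such genes. At the other end, 560 genes (3.58%) had a genotype and a treatment effect of opposed sign that both passed. In 338 of the 560 (60.4%) the 95% interval of the difference between STZ-cKOt and PBS-control lay within 1.3-fold of no change, and these are called cancelled. The count moves with that margin. Of the cancelled genes 179 had a genotype effect downward and 159 upward, against 69 and 121 at a margin of 1.2-fold and 273 and 185 at 1.5-fold. Over all tested genes the same held for 7826 (50.0%), so a narrow interval was common. The cancelled genes made up 2.16% of tested genes.

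**Figure D1:**
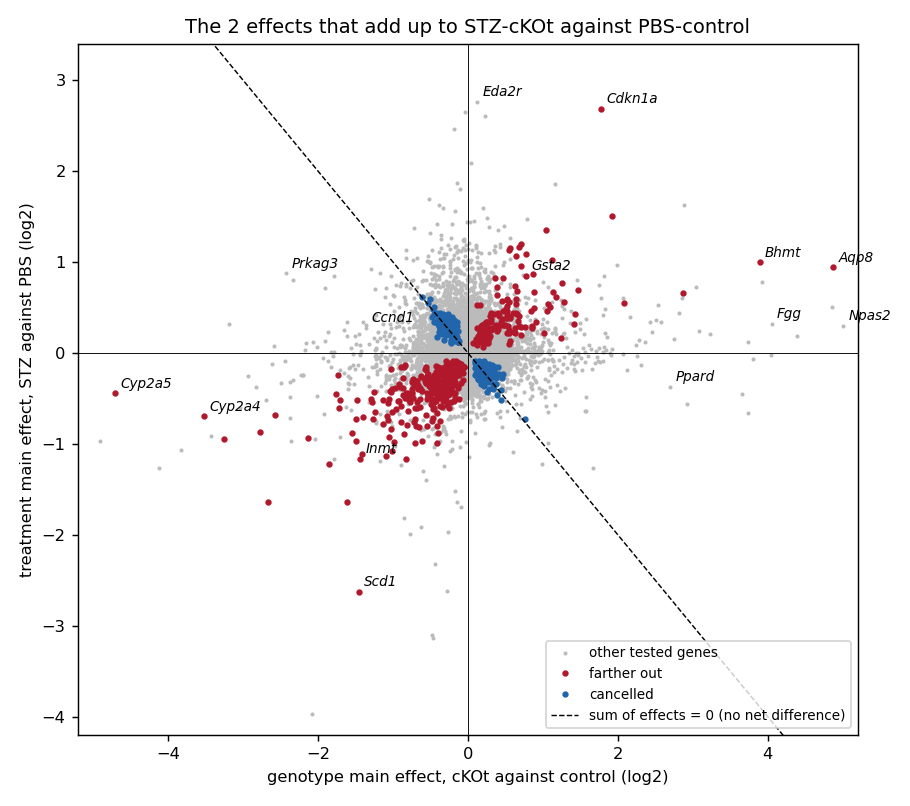
Each point is 1 of 15637 tested genes, placed by its genotype effect (horizontal axis, log2) and its treatment effect (vertical axis, log2), whose sum is the difference between STZ-cKOt and PBS-control. The 504 genes farther out (red) lie in the corners where both effects share a sign, with Cdkn1a, Aqp8 and Bhmt at the upper right and Scd1 and Cyp2a5 at the lower left, and the 338 cancelled genes (blue) lie along the dashed line where the effects sum to 0.

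The clock genes of STZ-cKOt stood at or near their level in PBS-cKOt. Promoters of 3 clock genes are shown that hold letters matching the E-box or the D-box, and others that match are not printed. Each has 15 bases on either side and the matching letters in capitals (RefSeq, GRCm38.p6). The first is an E-box of Tef (chr15:81802531-81802566, plus strand), the next the E-box of Cry1 (chr10:85185094-85185129, minus strand), and the last the pair of D-boxes of Per3 (chr4:151044801-151044885, minus strand).
Tef: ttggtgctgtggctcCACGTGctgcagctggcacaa
Cry1: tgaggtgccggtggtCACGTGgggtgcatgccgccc
Per3: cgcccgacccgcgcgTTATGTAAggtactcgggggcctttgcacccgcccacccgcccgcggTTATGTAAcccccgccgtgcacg
The 250 bases before each RefSeq start were searched on both strands for the E-box CACGTG and for the D-box words TTATGTAA, TTACATAA and TTACGTAA, of which the first is the reverse complement of the second. An E-box lay in 9.59% and a D-box in 0.796% of the promoters of the 11561 tested genes that had one in the reference. Of the 11 promoters found for the list of clock repressors and E-box outputs, 4 (36.4%) held an E-box. They were those of Tef, Ciart, Per1 and Bhlhe41, which differed by −1.18, −2.88, 0.15 and −0.23 log2 between STZ-cKOt and PBS-control. Another start of Tef also held an E-box (chr15:81811261-81811296). A match describes the letters and is not shown to be a bound site.

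All 6 tested members of the list of clock activators and REV-ERB-repressed genes were higher in STZ-cKOt, with a median log2 difference of 2.67, against 14.7% of all tested genes. Npas2, the partner of BMAL1 related to CLOCK, was read at 0.730, 1.03 and 1.53 CPM in PBS-control and at 39.7, 42.8 and 57.6 CPM in STZ-cKOt (5.31 ± 0.20 log2, edgeR adjusted p = 1.39e-23). The groups lay far apart, and the 9 PBS-cKOt libraries, at 46.2 to 60.1 CPM, overlapped those of STZ-cKOt. Cry1, a repressor of the loop, rose from 3.16, 4.87 and 6.26 CPM to 23.1, 25.3 and 29.8 CPM (2.43 ± 0.17 log2). For both genes the treatment effect did not pass (edgeR adjusted p = 0.0967 and 0.418). Nfil3, a repressor at D-boxes, was the exception in this list. It rose from 1.03, 1.55 and 2.76 CPM to 18.6, 21.5 and 29.5 CPM (3.76 ± 0.26 log2), and both its genotype effect of 3.04 and its treatment effect of 0.72 passed (edgeR adjusted p = 2.93e-17 and 0.00229). Between STZ-cKOt and PBS-cKOt, however, neither Nfil3 nor any other of the 6 members passed. The treatment effect also rests on STZ-control, which holds the library labelled STZ-control 2.

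Of 14 clock repressors and E-box outputs, 11 were lower in STZ-cKOt and 1, Cry2, was higher, against 14.8% and 14.7% of all tested genes. Their median was −0.75 log2. Dbp, the activator at D-boxes, fell from 97.1, 116 and 135 CPM to 17.5, 25.5 and 33.1 CPM (−2.15 ± 0.19 log2). Per3, a period gene, fell from 56.6, 62.8 and 76.0 CPM to 11.2, 16.3 and 22.5 CPM (−1.84 ± 0.13 log2). Neither overlapped between the groups. Tef, a relative of Dbp, fell from 451, 485 and 539 CPM to 197, 217 and 231 CPM (−1.18 ± 0.07 log2, edgeR adjusted p = 1.21e-15). Nr1d2, which encodes REV-ERB beta, fell from 179, 209 and 263 CPM to 44.2, 57.6 and 66.5 CPM (−1.95 ± 0.10 log2). Its median in PBS-cKOt was lower still, at 43.9 CPM, and within the knockout STZ was followed by a rise of 0.33 ± 0.10 log2 (edgeR adjusted p = 0.0211). Only Bhlhe40 of the 14 ended farther out, at −0.70 log2.

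The genes that fell farther out included 4 of 14 detoxification genes and 5 of 18 carriers of organic ions and drugs, against 2.19% of all tested genes. Of 14 detoxification genes listed as targets of DBP and its relatives, 9 were lower and 4 higher in STZ-cKOt. Their median was −0.93 log2, and 14.8% of all tested genes were lower and 14.7% higher. Whether these factors drive the genes here was not tested. A D-box lay in 1 of the 9 promoters found for this list (11.1%). Cyp2a4 (chr7:26307169-26315088), a cytochrome P450, was read at 396, 570.1 and 734 CPM in PBS-control and at 17.4, 27.7 and 43.2 CPM in STZ-cKOt. The groups did not overlap, and the difference was −4.22 ± 0.16 log2 (edgeR adjusted p = 1.12e-20). STZ-control libraries spanned 367 to 735 CPM, near PBS-control, whereas PBS-cKOt spanned 56.3 to 113 CPM. The treatment difference was −1.29 log2 in the knockout and −0.10 in controls. Its close relative Cyp2a5 fell from 58.8, 124 and 159 CPM to 2.33, 3.04 and 4.80 CPM (−5.15 ± 0.24 log2). The pair is near-identical in sequence, so reads may be split between them and the value of each is uncertain. Cyp4a12a, a fatty acid hydroxylase with close copies of its own, fell from 74.7, 262 and 346 CPM to 4.78, 12.5 and 19.7 CPM (−4.2 ± 0.34 log2). Its copy Cyp4a12b was lower by 1.19 log2 (edgeR adjusted p = 2.24e-06). In Cyp4a12b the effects were opposed, downward for genotype and upward for treatment, and it kept that class in all 26 other settings. Aldh1a1, Aldh1a7 and Cyp4a14 of the same list were higher, by 1.54, 1.39 and 3.01 log2.

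Ces1d, a carboxylesterase, fell from 272, 379 and 465 CPM in PBS-control to 18.7, 28.2 and 38.9 CPM in STZ-cKOt (−3.64 ± 0.14 log2, edgeR adjusted p = 6.93e-21). Cyp4b1, a cytochrome P450, fell from 2946, 3478 and 3960 CPM to 531, 790.4 and 1460 CPM (−1.98 ± 0.12 log2). For both, each single change had already lowered the gene, to medians of 2372 CPM (Cyp4b1) and 269.8 CPM (Ces1d) in STZ-control and of 2113 and 60.9 CPM in PBS-cKOt. Inmt (chr6:55170626-55175043), which methylates indole amines, was read at 757, 880.0 and 1107 CPM in PBS-control, 277, 541 and 793 with STZ alone, 339, 425 and 692 with the deletion alone and 114, 144 and 197 with both. No STZ-cKOt library reached the lowest of any other group. Its difference was −2.60 ± 0.14 log2 (edgeR adjusted p = 1.42e-16), with a genotype effect of −1.44 and a treatment effect of −1.16. Among the 8 genes named for falling farthest beyond both single changes were also Kcng1, a modulatory potassium channel subunit (−2.53 ± 0.21), Aldh3b3, an aldehyde dehydrogenase (−1.99 ± 0.23), and Bcat1, the cytosolic branched-chain aminotransferase (−1.96 ± 0.21). Bcat1 fell from 44.9, 99.6 and 136 CPM to 9.13, 22.8 and 36.5 CPM, without overlap.

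**Figure D2:**
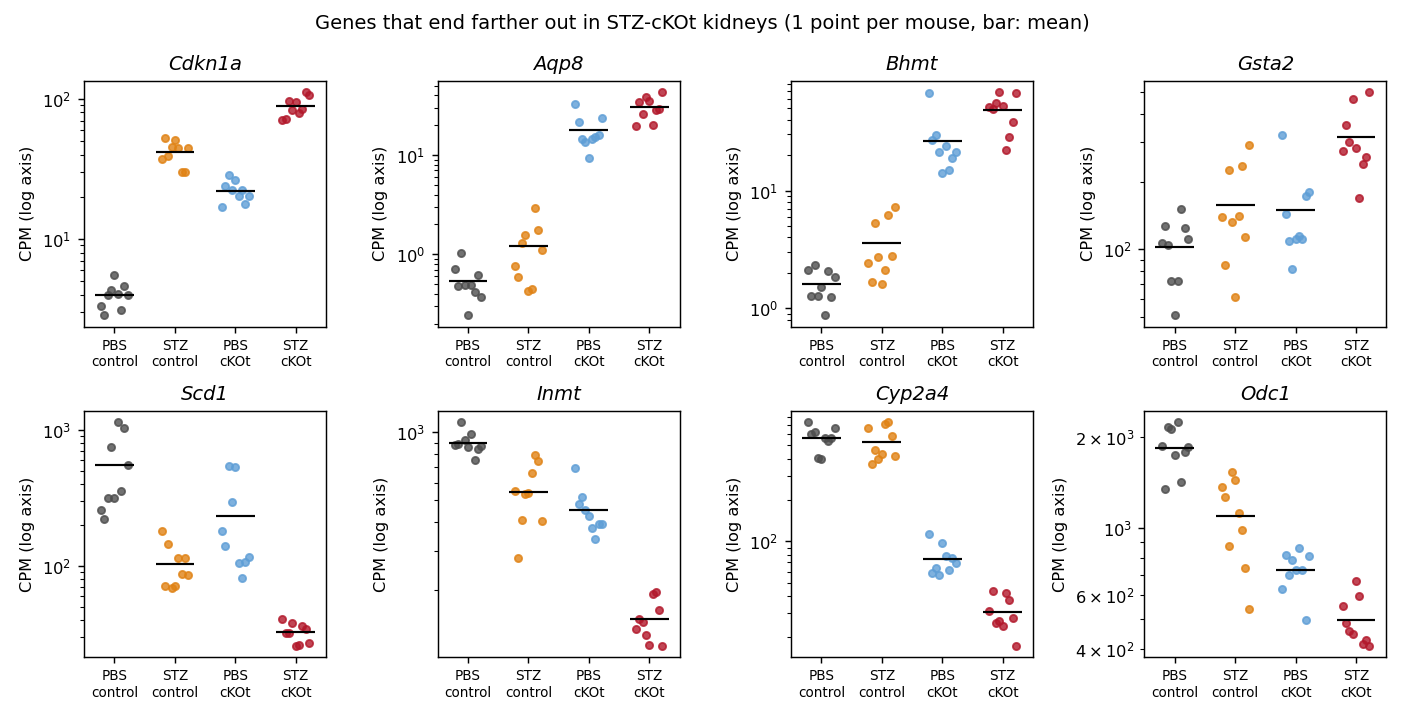
CPM (log axis) of 8 genes that ended farther out, with 1 point per mouse, 9 mice per group, and a bar at the mean. Cdkn1a, Aqp8, Bhmt and Gsta2 were highest in STZ-cKOt, where the Cdkn1a libraries lay between 70.6 and 111 CPM, and Scd1, Inmt, Cyp2a4 and Odc1 were lowest there, where the Scd1 libraries lay between 25.8 and 40.4 CPM.

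Of 9 tested genes known to respond to androgen in the mouse kidney, 8 were lower and 0 higher by edgeR, against 14.8% lower over all tested genes, with a median of −1.45 log2 made up of −1.01 for genotype and −0.45 for treatment. Odc1, which starts polyamine synthesis, was read at 1351, 1857 and 2241 CPM in PBS-control, 541, 1121 and 1541 with STZ alone, 497, 728 and 862 with the deletion alone and 409, 458 and 670.3 with both. STZ-cKOt lay below all PBS-control libraries but overlapped both other groups at their low ends. The difference was −1.89 ± 0.14 log2 (edgeR adjusted p = 3.31e-13). Acsm3, a mitochondrial acyl-CoA synthetase, fell from 1370, 1906 and 2111 CPM to 319, 530.5 and 892 CPM (−1.66 ± 0.17 log2). Cyp2e1, Cyp4a12a and Cyp4a12b of this list were also counted among the detoxification genes, and Slco1a1 among the carriers of organic ions and drugs. The counts of these lists are therefore not independent. The sex of the animals was not analysed here.

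Of 18 carriers of organic ions and drugs, 12 were lower and 2, Abcb1b and Abcc4, were higher, against 14.8% and 14.7% of all tested genes, with a median of −0.39 log2. Slc22a8, which takes organic anions up from blood, fell from 369, 419 and 539 CPM in PBS-control to 99.7, 145 and 192 CPM in STZ-cKOt (−1.61 ± 0.12 log2, edgeR adjusted p = 3.75e-13). The groups did not overlap. It ended farther out, as did Slc22a2, Slc22a7, Slc47a1 and Slco1a1 of the list, at −0.29, −0.84, −0.50 and −1.74 log2. Miox, which opens the ring of myo-inositol, fell from 1223, 1264 and 1408 CPM to 463, 525 and 727 CPM (−1.23 ± 0.11 log2), again without overlap and with like shares from genotype (−0.64) and treatment (−0.59). Ace, the angiotensin-converting enzyme, fell from 323, 360.2 and 449 CPM to 124, 155 and 206 CPM (−1.22 ± 0.12 log2) and ended farther out. In the same renin-angiotensin list Agt, the precursor, rose by 1.18 ± 0.09 log2.

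D-box words were found in 7 of the 261 promoters (2.68%) of genes lower and farther out, against 0.796% of all. Shares for the opposed genes were 8 of 440 (1.82%) and for the cancelled genes 3 of 272 (1.1%). Of the 126 promoters of genes higher and farther out 0 held one. No test was run on these shares. The words are shown for 2 of the genes lower and farther out, Acsm3 (chr7:119760845-119760882, plus strand) and Miox (chr15:89334400-89334437, plus strand). An E-box lay in 21 of the 261 (8.05%), near the share over all promoters.
Acsm3: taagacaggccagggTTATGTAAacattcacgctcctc
Miox: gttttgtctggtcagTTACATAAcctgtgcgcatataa

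The marker genes of the proximal tubule fell beside these. Their summed level, over 12 genes, ran from 23431 to 27699 CPM in PBS-control (median 25073) and from 16861 to 20565 CPM in STZ-cKOt (median 18328), without overlap (two-sided exact permutation test, adjusted p = 0.000864 over 21 measures). With STZ alone the sum was already at 17819, 19058 and 22734 CPM, and with the deletion alone at 18872, 22235 and 23126 CPM. Both overlapped STZ-cKOt. Of the 12 markers 6 were lower and 0 higher by edgeR, against 14.8% and 14.7% of all tested genes. Of them 3, Slc27a2, Slc7a13 and Slc13a3, ended lower and farther out, against 2.19%. Slc27a2, a fatty acid transporter and synthetase, fell from 4108, 4692 and 5214 CPM to 2531, 2896 and 3236 CPM (−0.72 ± 0.06 log2). Slc7a13, a cystine carrier of the late proximal tubule, fell from 685, 872 and 1111 CPM to 229, 441 and 569 CPM (−1.0 ± 0.12 log2). In bulk kidney, fewer cells of a type and less RNA per cell cannot be told apart. The part of the marker sum in the falls of the enzymes and carriers was not tested. Umod, the marker of the thick ascending limb that encodes uromodulin, fell from 2030, 2404 and 3179 CPM to 1186, 1317 and 1882 CPM (−0.88 ± 0.10 log2). It was the 1 lower of 7 markers of that segment, whose median was 0.10 log2 and of which 1, Kng2, was higher (0.44 log2). Their sum, which holds Umod, had means of 5531 and 4368 CPM (two-sided exact permutation test, adjusted p = 0.00743).

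Lipid synthesis fell most through Scd1, the stearoyl-CoA desaturase (chr19:44394455-44407879). It was read at 222, 356 and 1135 CPM in PBS-control, 68.5, 87.5 and 179 with STZ alone, 80.6, 139 and 544 with the deletion alone and 25.8, 31.8 and 40.4 with both. The highest STZ-cKOt library was below the lowest library of every other group. The difference was −4.09 ± 0.33 log2 (edgeR adjusted p = 2.05e-11), of which −1.46 came with genotype and −2.63 with treatment. Of 11 tested genes of fatty acid synthesis, 8 were lower and 0 higher, against 14.8% and 14.7% of all tested genes, with a median of −0.43 log2. Fasn, the fatty acid synthase, fell from 73.8, 108 and 319 CPM to 35.6, 49.4 and 57.0 CPM (−1.52 ± 0.25 log2), without overlap, but its genotype effect did not pass (edgeR adjusted p = 0.0697). Me1, which supplies NADPH, and Srebf1, the regulator of these enzymes, ended farther out with Scd1, at −0.58 ± 0.06 and −0.43 log2.

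Markers of fat cells varied beside these values. In PBS-control the adipocyte markers summed to 44.7, 67.3 and 320.2 CPM, against 50.5, 59.8 and 74.2 CPM in STZ-cKOt, and 4 of 6 were lower by edgeR, against 14.8% of all tested genes. The 4 PBS-control libraries with the most Scd1 also had the most Plin1, the perilipin of fat cells, which was read at up to 14.1 CPM there. Without PBS-control 8, the library with the highest marker sum, Scd1 differed by −3.92 log2 and Fasn by −1.28. The part of these cells in the lipid genes' falls was not tested.

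Of 22 genes of fatty acid oxidation and PPARA targets, 11 were lower and 5 higher, against 14.8% and 14.7% of all tested genes, with a median of −0.28 log2. Cd36, a fatty acid translocase, fell from 794, 875 and 1171 CPM to 409, 447 and 548 CPM (−1.01 ± 0.10 log2). It did not overlap between the groups and ended farther out, as did Cpt2, Ehhadh and Acaa1b at −0.56, −0.45 and −1.01 log2. Acat1 and Bdh1, enzymes of ketone body use, also ended farther out, at −0.52 and −0.62 log2.

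Cdkn1a (chr17:29090976-29100727) was among the genes that rose farther out. It encodes p21, an inhibitor of cyclin-dependent kinases and a target of p53. A match to the p53 site lies just before its start, shown with the whole match in capitals (chr17:29090891-29090952, plus strand). A match lay in 5 of the 11561 promoters (0.0432%), and this motif was added after the values were seen.
Cdkn1a: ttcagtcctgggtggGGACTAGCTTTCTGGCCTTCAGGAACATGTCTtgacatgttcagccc
Cdkn1a was read at 2.86, 4.00 and 5.55 CPM in PBS-control, 30.0, 44.3 and 52.2 with STZ alone, 17.1, 22.2 and 28.7 with the deletion alone and 70.6, 84.2 and 111 with both. No group overlapped any other. STZ-cKOt was above PBS-control by 4.47 ± 0.13 log2, a 22.2-fold difference (edgeR adjusted p = 2.28e-25). It exceeded STZ-control by 1.10 ± 0.11 log2 and PBS-cKOt by 2.01 ± 0.11. STZ was followed by a rise of 3.37 log2 in controls, and the interaction of −1.37 ± 0.17 passed (edgeR adjusted p = 1.93e-05). The mean of 88.8 CPM lay above the 59.5 CPM that adding both single differences to the PBS-control mean gives, and below the 229.6 CPM that multiplying both single folds gives.

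Of the other p53 targets, few had a genotype effect. Of 19 tested, 16 were higher and 0 lower in STZ-cKOt, against 14.7% and 14.8% of all tested genes, with a median of 0.81 log2. For 18 the treatment effect passed upward, against 11.2% of all tested genes, and for the genotype effect 2 passed in each direction, against 15.3% higher and 17.1% lower. Eda2r, a member of the tumour necrosis factor receptor family, rose from 0.724, 1.43 and 2.00 CPM to 6.66, 11.7 and 13.3 CPM (2.88 ± 0.17 log2). It differed from STZ-control by 0.17 ± 0.14, which did not pass (edgeR adjusted p = 0.433). Psrc1, a spindle protein gene, rose by 2.84 ± 0.20 log2 and Zmat3, an RNA-binding protein gene, by 0.85 ± 0.08, with treatment effects of 2.61 and 0.77. Cdkn1a was the only one of the 19 to end farther out.

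Aqp8, a water channel (chr7:123462291-123468004), was read at 0.243, 0.489 and 1.04 CPM in PBS-control and 0.426, 1.10 and 2.92 with STZ alone. It was read at 9.35, 15.3 and 32.5 CPM with the deletion alone and 19.8, 29.0 and 42.9 with both. Both knockout groups stood clear of both control groups but overlapped each other. The difference of 5.82 ± 0.34 log2 (edgeR adjusted p = 8.72e-19) was the largest rise named, and STZ within the knockout accounted for 0.77 ± 0.20 of it (edgeR adjusted p = 0.00744). Bhmt, which remethylates homocysteine with betaine (chr13:93616675-93637961), followed the same order, at 0.872, 1.51 and 2.35 CPM in PBS-control and 22.1, 50.7 and 68.3 in STZ-cKOt (4.89 ± 0.33 log2). In the knockout its step with STZ was 0.86 ± 0.25 log2 (edgeR adjusted p = 0.0172). The promoter of Aqp8 held an E-box (chr7:123462204-123462239, plus strand) and that of Bhmt the RORE (chr13:93637837-93637877, minus strand), a motif found in 19 of the 11561 promoters (0.164%).
Aqp8: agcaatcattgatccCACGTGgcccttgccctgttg
Bhmt: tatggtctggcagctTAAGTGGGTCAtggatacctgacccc
An E-box lay in 15 of the 126 promoters (11.9%) of genes higher and farther out, against 9.59% of all.

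The 12 betaine, homocysteine and one-carbon enzymes of the list that holds Bhmt went both ways, 6 higher and 6 lower, against 14.7% and 14.8% of all tested genes. Shmt1, a serine hydroxymethyltransferase, rose from 37.6, 45.3 and 48.0 CPM to 64.6, 78.2 and 91.1 CPM (0.84 ± 0.07 log2) and was farther out like Bhmt. Mat2a, which makes S-adenosylmethionine, fell from 713, 768 and 1059 CPM to 357, 467 and 552 CPM (−0.81 ± 0.09 log2), and ended farther out with Chdh, Cbs, Gnmt and Ahcy at −0.47, −0.62, −0.56 and −0.69 log2.

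Gsta2, a glutathione transferase, passed against every group although neither single change passed against PBS-control (0.62 log2 for STZ, edgeR adjusted p = 0.102, and 0.54 for the knockout, adjusted p = 0.116). It was read at 50.9, 107 and 151 CPM in PBS-control, 61.3, 139 and 289.7 with STZ alone, 81.5, 114 and 321 with the deletion alone and 169.8, 282 and 498 with both. STZ-cKOt was above every PBS-control library and overlapped the upper part of the others. It was higher than PBS-control by 1.62 ± 0.25 log2 (edgeR adjusted p = 3.71e-06), and the interaction of 0.46 did not pass (edgeR adjusted p = 0.544). Cbr3, a carbonyl reductase, rose by 1.70 ± 0.27 log2 and Bbox1, which completes carnitine synthesis, by 1.31 ± 0.27. Gsta2, Cbr3, Bbox1 and Cdkn1a remained farther out under each of 26 other settings and omissions.

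A further 3 genes were farther out only with certain libraries kept. Gc, the vitamin D-binding protein, was read at 20.7, 32.4 and 136 CPM in STZ-cKOt, Depp1, a target of FOXO factors, at 4.02, 8.59 and 53.8 CPM, and Ugt1a10, a glucuronosyltransferase, at 20.7, 60.3 and 172 CPM. In each the highest value was STZ-cKOt 9. Against PBS-control they were higher by 1.85 ± 0.33, 2.39 ± 0.37 and 1.69 ± 0.48 log2, and without STZ-cKOt 9 by 1.45, 1.91 and 1.39, when none was farther out any longer. Ugt1a10 also left the class without STZ-cKOt 3 or 4, and Gc without STZ-cKOt 4. Ugt1a10 shares exons with the other genes of its cluster, so its count is uncertain.

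Calcium and magnesium genes of the distal convoluted tubule were among those that rose. Calb1, the calcium-binding calbindin, was read at 242, 359 and 454 CPM in PBS-control and at 514, 789 and 1087 CPM in STZ-cKOt (1.19 ± 0.14 log2, edgeR adjusted p = 6.74e-09). Trpm6, the magnesium channel, rose from 12.9, 14.8 and 19.4 CPM to 23.2, 30.6 and 35.7 CPM (1.02 ± 0.11 log2). Trpv5, the calcium channel, rose from 11.8, 17.0 and 23.3 CPM to 24.9, 31.0 and 36.9 CPM (0.83 ± 0.11 log2). None of the 3 overlapped between the groups, and all ended farther out. Over the list of phosphate, calcium and vitamin D genes 8 of 15 were higher and 5 lower, against 14.7% and 14.8% of all tested genes, the last including Cyp27b1 and Cyp24a1, which make and break down active vitamin D (−1.29 and −0.97 log2). The summed markers of the distal convoluted tubule, which include Calb1 and Trpm6, had means of 1947 and 2599 CPM (two-sided exact permutation test, adjusted p = 0.00173). Slc12a3, the sodium-chloride cotransporter that defines the segment, was at 0.07 log2 and did not pass. Sgk1, the kinase that stimulates sodium channels, rose from 42.7, 64.9 and 99.3 CPM to 144, 201 and 316 CPM (1.55 ± 0.15 log2), also farther out. Of its list of 14 distal sodium and potassium genes 7 were higher and 0 lower, against 14.7% and 14.8% of all tested genes. Wnk1 also ended farther out (0.40 log2).

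The list of ammonia formation and proximal acid handling went both ways. Of its 10 genes 4 were higher and 4 lower, against 14.7% and 14.8% of all tested genes, with a median of −0.09 log2. Slc38a3, which brings glutamine into the proximal tubule, rose from 33.3, 50.3 and 70.7 CPM to 90.3, 132 and 165 CPM (1.24 ± 0.16 log2, edgeR adjusted p = 7.73e-08). Glud1, glutamate dehydrogenase, was read at 475, 527 and 611 CPM in PBS-control, 448, 554 and 639 with STZ alone, 576, 638 and 763 with the deletion alone and 735, 922 and 1283 with both (0.83 ± 0.09 log2). Both stood clear of PBS-control. Car2, the cytosolic carbonic anhydrase, rose from 254, 298 and 343 CPM to 347, 457 and 563 CPM (0.57 ± 0.07 log2). These 3 ended farther out. Among the lower members were Slc9a3, the proximal sodium-proton exchanger (−0.73 log2), and Glul, which consumes ammonia (−0.43).

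Of 12 gluconeogenic genes 2 were higher and 1 lower in STZ-cKOt, and of 10 glucose transporters 2 were higher and 1 lower, shares near the 29.5% of all tested genes that differed. Pck1, phosphoenolpyruvate carboxykinase, was read at 1235, 2128 and 2986 CPM in PBS-control and 1890, 2260 and 3321 CPM in STZ-cKOt. The groups overlapped broadly, and the difference of 0.26 ± 0.14 log2 (95% interval −0.02 to 0.54) did not pass (edgeR adjusted p = 0.163). Fbp1, fructose bisphosphatase, was at 883, 989.7 and 1078 CPM and at 807, 912 and 1140 CPM (−0.11 ± 0.08 log2, interval −0.26 to 0.05). Slc5a2, the main sodium-glucose transporter SGLT2, was at 248, 337 and 399.5 CPM and at 207, 340.0 and 439.8 CPM, with an interval from −0.26 to 0.25 log2. Slc5a1, SGLT1 of the later segment, had an interval from −0.13 to 0.18 log2.

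G6pc, glucose-6-phosphatase, had opposed parts. It was read at 307, 511 and 615 CPM in PBS-control, 211, 331 and 454 with STZ alone, 467, 664 and 738 with the deletion alone and 493, 598 and 742 with both. STZ-control was low and both knockout groups high. The genotype effect was 0.61 ± 0.08 log2 and the treatment effect −0.31 ± 0.08, and their sum of 0.30 ± 0.12 did not pass (edgeR adjusted p = 0.0518). This call turned with the setting, and in 11 of 27 alternatives the sum passed, among them leaving out PBS-control 1 or 8 or STZ-cKOt 2, 6 or 7 (adjusted p from 0.0147 to 0.121 over the 27). Its promoter held the third D-box word, shown because its list otherwise lacked one (chr11:101367539-101367576, plus strand).
G6pc: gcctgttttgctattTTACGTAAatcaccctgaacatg
Slc2a2, the basolateral glucose transporter GLUT2, had the same median of 230.2 CPM in PBS-control and STZ-cKOt, with an interval from −0.32 to 0.20 log2, while PBS-cKOt had a median of 160.2 CPM. Ppargc1a, a coactivator of gluconeogenic and mitochondrial genes, differed by 0.20 ± 0.09 log2 (edgeR adjusted p = 0.0726). The transporter that did rise farther out was Slc5a10, which carries mannose and fructose with sodium. It rose from 138, 174 and 219.6 CPM to 262, 293 and 481 CPM, without overlap (0.96 ± 0.11 log2, edgeR adjusted p = 1.07e-08).

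**Figure D3:**
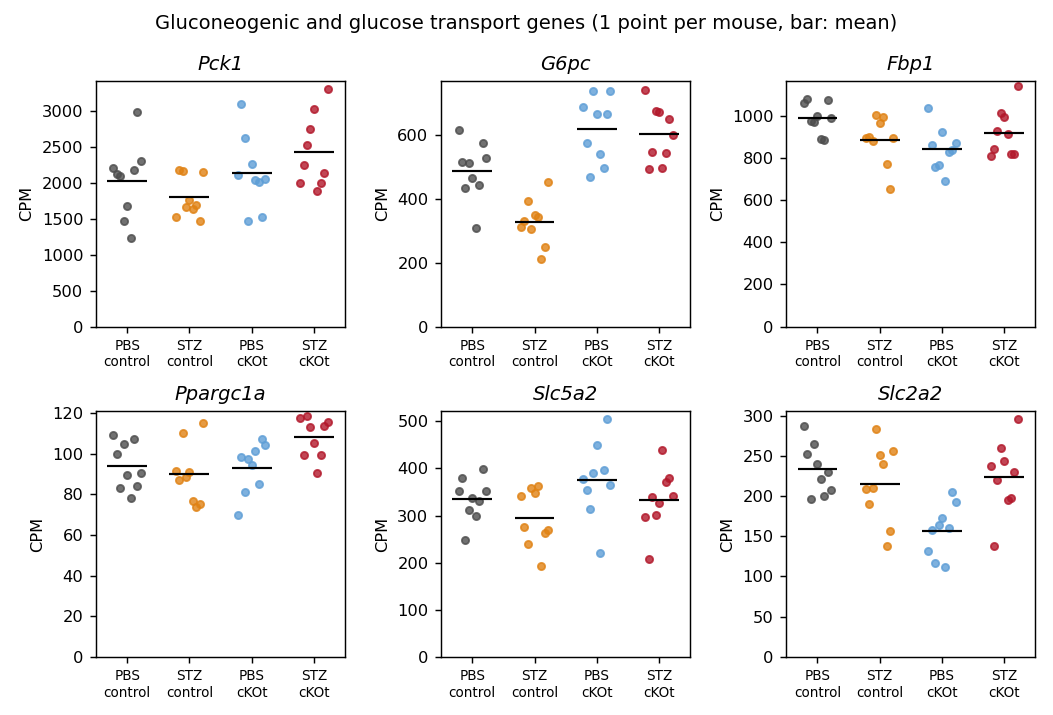
CPM of 6 genes of glucose production and transport in 9 mice per group, with 1 point per mouse and a bar at the mean. For Pck1, Fbp1, Slc5a2 and Slc2a2 the STZ-cKOt points overlap those of PBS-control, and G6pc is low in STZ-control, with a median of 331 CPM, and high in both cKOt groups.

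Most genes of the cell cycle, interferon and injury lists had a treatment effect upward, and in some of them a genotype effect downward opposed it. Of 18 cell cycle genes the treatment effect passed upward in 17, against 11.2% of all tested genes, and the genotype effect downward in 6, against 17.1%. In the sum 12 were higher and 1 lower, against 14.7% and 14.8%, with a median of 0.48 log2. Rrm2, a subunit of ribonucleotide reductase, rose from 2.69, 3.97 and 5.63 CPM to 6.49, 7.80 and 9.68 CPM (0.98 ± 0.12 log2, edgeR adjusted p = 4.04e-08), without overlap. Top2a, topoisomerase II alpha, rose by 1.04 ± 0.18 log2. The 1 lower gene was Ccnd1, cyclin D1, at 174, 223 and 281 CPM in PBS-control and 88.2, 107 and 137 CPM in STZ-cKOt (−1.08 ± 0.11 log2), with a genotype effect of −1.36 and a treatment effect of 0.28.

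Of 14 interferon-stimulated genes 8 were higher and 0 lower, against 14.7% and 14.8% of all tested genes, with a median of 0.34 log2. The treatment effect passed upward in 13 and the genotype effect downward in 7, against 11.2% and 17.1%. Ifit1, an interferon-induced RNA-binding protein gene, rose from 3.67, 5.29 and 6.62 CPM to 7.30, 8.14 and 10.5 CPM (0.78 ± 0.12 log2) and differed from STZ-control by −0.38 log2 (edgeR adjusted p = 0.0183). Of 15 tubular injury genes 12 had a treatment effect upward and 6 a genotype effect downward. Effects were opposed in 5 of them, of which 3 were cancelled, against 3.58% and 2.16% of all tested genes. In STZ-cKOt 6 of the 15 were higher and 1 lower, against 14.7% and 14.8%, with a median of 0.14 log2. Spp1, osteopontin, rose from 455, 517 and 663 CPM to 682, 928 and 1186 CPM (0.84 ± 0.10 log2). Lcn2, the injury marker lipocalin 2, rose from 0.831, 1.61 and 2.13 CPM to 2.08, 3.23 and 7.5 CPM (1.29 ± 0.27 log2), overlapping only at the edge. Il34, a growth factor for macrophages, was the lower one, at 20.7, 27.2 and 34.4 CPM in PBS-control and 4.76, 5.91 and 14.5 CPM in STZ-cKOt (−2.0 ± 0.20 log2), and ended farther out.

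In matrix and leukocyte genes treatment effects upward often met genotype effects downward, which over all tested genes passed in 11.2% and 17.1%. Of 17 fibrosis and matrix genes the treatment effect passed upward in 14 and the genotype effect downward in 10, and in STZ-cKOt against PBS-control 2 were higher and 0 lower, against 14.7% and 14.8% of all tested genes, with a median of 0.12 log2. Of 14 genes of inflammation, complement and chemokines, 8 had a treatment effect upward and 11 a genotype effect downward, and 1, Nfkbia, was higher and 1, Cxcl1, lower. Col1a1, the collagen I chain, was read at 7.23, 13.5 and 20.5 CPM in PBS-control, 11.1, 15.9 and 24.4 with STZ alone, 7.19, 8.09 and 11.9 with the deletion alone and 9.22, 13.2 and 18.2 with both. STZ-cKOt covered the same range as PBS-control. The genotype effect was −0.47, the treatment effect 0.49 and their sum 0.01 ± 0.17 log2, with an interval from −0.32 to 0.35. Because that interval is almost as wide as the margin of 1.3-fold, Col1a1 left the cancelled class in 11 of 26 other settings. Col1a2, Ctgf, Acta2 and Tagln of the list were cancelled too.

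Cd72, a receptor of B cells and macrophages, had medians of 4.14 CPM in PBS-control, 5.53 with STZ alone, 2.93 with the deletion alone and 4.43 with both. Its sum was 0.05 ± 0.13 log2 (interval −0.22 to 0.33). Loxl1, a lysyl oxidase of elastic fibres, had medians of 11.9, 15.9, 8.89 and 9.90 CPM in the same order and a sum of −0.02 ± 0.14 log2. Spn, the leukocyte sialophorin, had a sum of 0.03 ± 0.14 log2. Each of these was highest in STZ-control and lowest in PBS-cKOt. Ctss, the protease cathepsin S, Sla, an adaptor of lymphocytes, Dpt, the matrix protein dermatopontin, and Ms4a6b, of leukocyte membranes, were also cancelled (−0.11, −0.08, −0.03 and 0.02 log2), but left the class in 11, 6, 11 and 16 of the other settings. Of 9 macrophage markers all 9 had a genotype effect downward and 3 a treatment effect upward, and their sum stayed lower, with means of 264 CPM in PBS-control and 214 in STZ-cKOt (two-sided exact permutation test, adjusted p = 0.00281). Of 8 fibroblast and mural cell markers 5 had a genotype effect downward, 5 a treatment effect upward and 0 passed between STZ-cKOt and PBS-control (edgeR), and their sums ran from 177 to 271 and from 206 to 263 CPM. The part of these cells in the cancelled genes was not tested.

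Cancelled genes with the opposite signs, raised in cKOt and lowered by STZ, included genes of the tubule. Tcf24, a helix-loop-helix factor, was read at 22.2, 24.9 and 34.4 CPM in PBS-control, 8.70, 14.2 and 17.0 with STZ alone, 35.6, 38.4 and 47.7 with the deletion alone and 19.0, 27.5 and 32.3 with both. STZ-control lay wholly below and PBS-cKOt wholly above the other groups, which shared a range. The genotype effect of 0.76 and the treatment effect of −0.73 summed to 0.03 ± 0.10 log2 (interval −0.17 to 0.23). Vwa2, a matrix protein of basement membranes, had medians of 20.7, 16.1, 29.3 and 20.3 CPM in the same order (sum 0.03 ± 0.11 log2), and Ugt3a1, a glycosyltransferase, of 185, 157, 255 and 194 CPM (−0.05 ± 0.12). Kmo, which hydroxylates kynurenine, had medians of 162, 138, 226 and 184 CPM. Its sum of 0.18 ± 0.07 log2 lay within the margin and still passed the test (edgeR adjusted p = 0.0383), as for 17 of the 338 cancelled genes (5.03%). Hunk, a kinase, Vill, a villin-like protein, and Rasl12, a small GTPase, gave sums of −0.08, −0.05 and −0.05 log2, and Zfp239, a zinc-finger protein, −0.07. Of these 8 only Zfp239 left the class in any of the 26 other settings, in 10 of them.

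**Figure D4:**
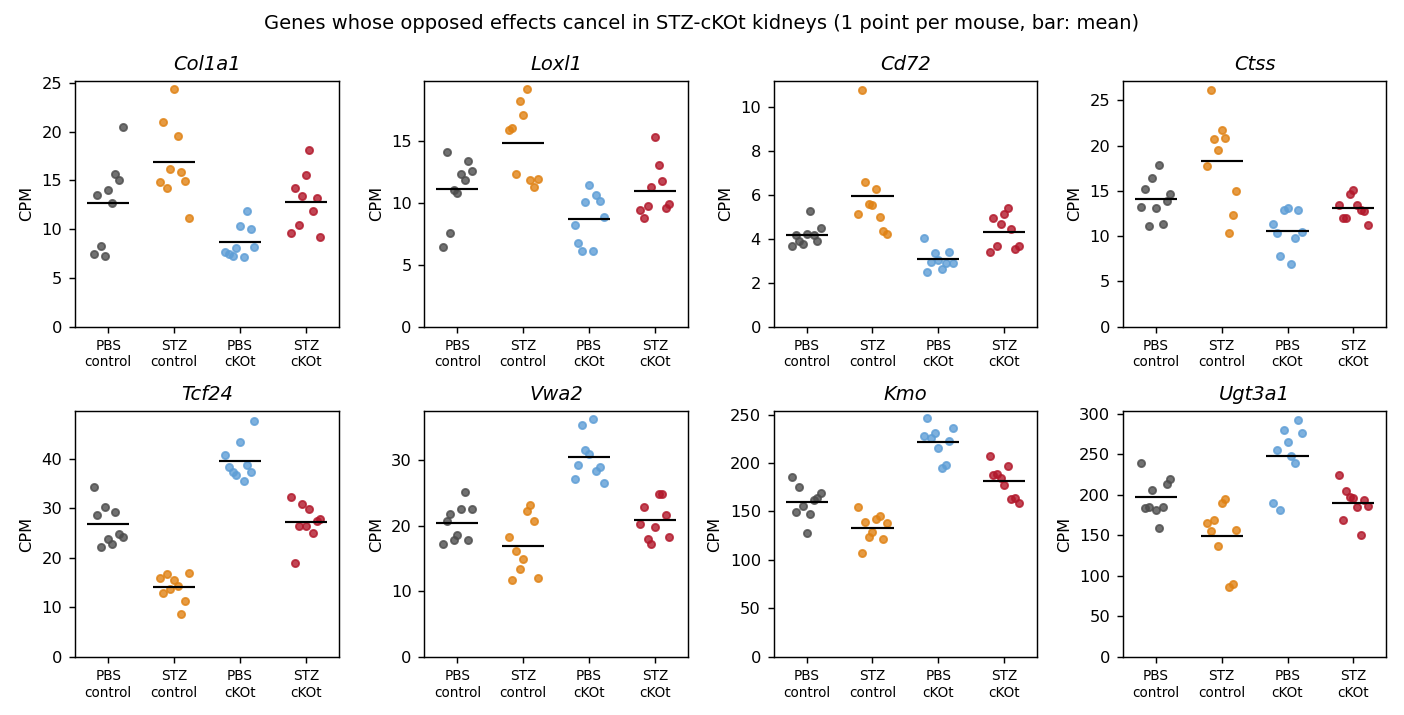
CPM of 8 cancelled genes in 9 mice per group, with 1 point per mouse and a bar at the mean. In the upper row (Col1a1, Loxl1, Cd72, Ctss) STZ-control is highest and PBS-cKOt lowest, in the lower row (Tcf24, Vwa2, Kmo, Ugt3a1) the reverse, and in both rows STZ-cKOt lies near PBS-control, with Tcf24 at medians of 27.5 and 24.9 CPM.

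Opposed effects of unequal size left a difference. Of the 560 opposed genes, 88 (15.7%) still differed between STZ-cKOt and PBS-control, 64 (11.4%) with the sign of the genotype effect and 24 (4.29%) with that of the treatment. A further 151 (27.0%) neither differed nor lay within the margin. Ppard, the fatty acid receptor PPAR delta, was read at 9.34, 13.7 and 14.5 CPM in PBS-control, 11, 13.3 and 17.5 with STZ alone, 84.4, 112 and 146 with the deletion alone and 45.9, 65.1 and 99.3 with both. The knockout groups lay far above both control groups. STZ-cKOt exceeded PBS-control by 2.32 ± 0.12 log2 (edgeR adjusted p = 1.16e-17) and differed from PBS-cKOt by −0.80. Prkag3, a regulatory subunit of AMP kinase, was the mirror image, at 6.11, 8.95 and 11.1 CPM in PBS-control, 0.837, 1.32 and 2.75 in PBS-cKOt and 2.25, 2.94 and 3.98 in STZ-cKOt (−1.55 ± 0.14 log2). Its treatment effect of 0.88 offset part of its genotype effect of −2.42. Col6a6, a collagen VI chain (2.37 ± 0.23 log2), Car5b, a mitochondrial carbonic anhydrase (1.24 ± 0.06), Tmprss9, a serine protease (0.94 ± 0.20), and Scube3, a secreted signalling protein (0.61 ± 0.12), also kept a rise. Ucp2, a mitochondrial carrier, and Gsta3, a glutathione transferase, kept a fall (−0.87 ± 0.12 and −0.50 ± 0.12). Nap1l5, Dlg2 and Fst, the activin antagonist follistatin, did not pass (−0.23, −0.29 and −0.22 log2). For C3, the central complement component, the sum was 0.03 ± 0.26 log2, with an interval too wide for the margin (−0.49 to 0.55).

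Few genes passed the test for a departure from the sum of the single changes. The interaction had a median SE of 0.136 log2 over the tested genes, against 0.068 for the genotype and the treatment effect. Smaller departures could therefore be missed. The interaction, the STZ effect in cKOt minus that in control, passed in 7 of 15637 genes (0.0448%), all of them negative, and 1944 (12.4%) had an unadjusted p under 0.05. Besides Cdkn1a, Cyp2a4 (−1.20), Cyp2a5 (−1.57) and Ppard (−0.86), they were Apoc3 (−1.24), Apoa4 (−1.15) and Mcm2 (−0.41). Apoc3, an inhibitor of lipoprotein lipase, was read at 3.07, 3.84 and 4.33 CPM in PBS-control, 5.11, 5.88 and 11.4 with STZ alone, 6.69, 8.18 and 13.7 with the deletion alone and 4.89, 6.65 and 8.56 with both. STZ-cKOt was above PBS-control (0.89 ± 0.15 log2) but not above either single change. Apoa4, another lipoprotein component, was lowest in STZ-cKOt, at 2.91, 4.20 and 5.86 CPM against 4.70, 5.78 and 8.43 in PBS-control (−0.56 ± 0.15 log2). Mcm2, of the replicative helicase, had medians of 10.5 CPM in PBS-control and 13.1, 14.1 and 13.5 CPM in STZ-control, PBS-cKOt and STZ-cKOt, and STZ-cKOt passed against neither single change (edgeR adjusted p = 0.603 and 0.581).

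Several of the largest differences came with genotype alone. Fgg, a fibrinogen chain, was read at 3.12, 5.53 and 15.1 CPM in PBS-control and at 77.6, 136 and 191 CPM in STZ-cKOt (4.37 ± 0.25 log2, edgeR adjusted p = 6.79e-16), with PBS-cKOt at 62.8 to 207 CPM. Fga, another chain, rose by 3.32 ± 0.19 log2. Loxl4, a lysyl oxidase, rose by 3.87 ± 0.18 log2, Fhad1, a protein with a forkhead-associated domain, by 4.58 ± 0.30, and Slc7a12, an amino acid carrier, by 3.73 ± 0.34. In none of these did the treatment effect pass. Among the falls Synpr, a synaptic vesicle protein, went from 1.76, 26.2 and 61.6 CPM to 0, 0.565 and 1.01 CPM (−5.89 ± 0.83 log2), and Ctxn3, a small membrane protein, from 10.6, 28.6 and 41.9 CPM to 0.981, 1.99 and 3.88 CPM (−3.65 ± 0.38). Angptl7, a secreted angiopoietin-like protein (−4.89 ± 0.38), and Anks1b, an ankyrin-repeat protein (−4.34 ± 0.34), had a smaller treatment effect of the same sign, of −1.06 and −0.91. Alb, albumin, fell from 6.94, 8.81 and 14.0 CPM to 0.949, 1.12 and 3.21 CPM (−2.69 ± 0.31 log2). The size of the difference in 2 further named genes rested on 1 library each. Akr1c6, an aldo-keto reductase (4.51 ± 2.12 log2), stood at 79.0 CPM in STZ-cKOt 1, with 0 to 0.678 CPM in its group otherwise, and without that library the difference was −0.51 log2 (edgeR adjusted p = 0.906). Ucp1, of brown fat (−6.06 ± 1.43), stood at 107 CPM in PBS-control 8, with 0.317 to 5.22 CPM in its group otherwise, and without that library the difference was −3.71 log2 (edgeR adjusted p = 0.00116).

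**Figure D5:**
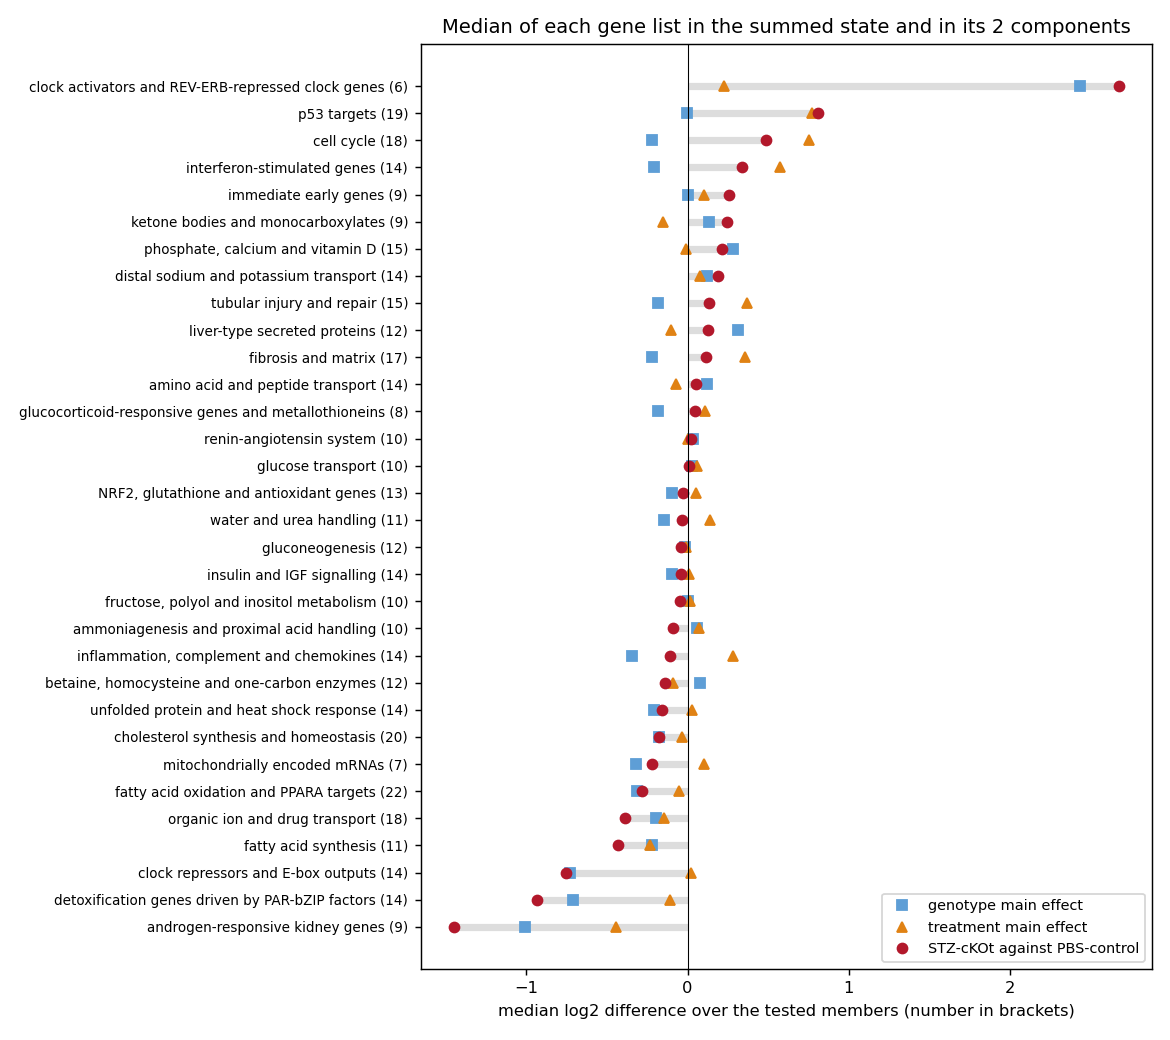
Median log2 difference over the tested members of each of 32 gene lists (numbers of members in brackets), for the genotype effect (squares), the treatment effect (triangles) and STZ-cKOt against PBS-control (circles). The clock activators (2.67) and the androgen-responsive genes (−1.45) end farthest from 0, and for the inflammation, fibrosis and injury lists the squares and triangles lie on opposite sides of 0 with the circles between −0.11 and 0.14.

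In the androgen-responsive, fatty acid synthesis and organic ion lists, as the plot of list medians shows, both parts lay on the same side of 0, and the summed state lay beyond each. In the p53 list the treatment part carried the median, and in the clock and detoxification lists the genotype part did. The detoxification genes still had treatment effects in both directions. Of the 14, the treatment effect passed upward in 6 and downward in 7, against 11.2% and 9.87% of all tested genes. Counts in other lists are read against 14.8% lower and 14.7% higher over all tested genes. Of 20 cholesterol genes 9 were lower and 1 higher, of 14 genes of insulin and IGF signalling 3 and 2, of 13 NRF2 and antioxidant genes 4 and 3, of 14 unfolded protein and heat shock genes 4 and 0, and of 14 amino acid and peptide carriers 3 and 4. Of 9 immediate early genes 1, Egr1, was higher, and of 7 mitochondrially encoded mRNAs 2 were lower. Of 8 glucocorticoid-responsive genes and metallothioneins 1 was lower and 2 higher, of 9 genes of ketone bodies and monocarboxylates 3 and 4, and of 10 of fructose, polyol and inositol metabolism 2 and 2. Of 11 genes of water and urea handling 4 were lower and 3 higher, of 10 of the renin-angiotensin system 2 and 3, and of 12 liver-type secreted proteins 4 and 5.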

How the data were processed

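Messenger RNA libraries (TruSeq Stranded mRNA, 500 ng of total RNA, per the labels' protocols) of 36 whole kidneys were used, and each numbered library was taken as 1 mouse; where libraries are not separate animals, p-values measure only the spread between samples. The deposited values are raw counts of reads per gene, which the authors made with cutadapt 1.8, STAR 2.5.3a and HTSeq 0.9.1 on GRCm38, per the submitters' processing notes. No source used here gives the strand or counting options, so reads of overlapping and antisense genes may be mixed. The 5 entries that name no gene were removed; between 32.5% and 38.1% of the reads counted per library among the 18 mapped to more than 1 place.

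Of 53715 genes, filterByExpr kept 15637. edgeR 4.0.16 in R 4.3.3 was run on all 36 libraries with 4 group means (TMM scaling, quasi-likelihood F tests, 32 residual degrees of freedom). Benjamini-Hochberg adjustment ran over all tested genes, with a threshold of 0.05. Measures per library were compared by two-sided exact permutation tests over 48620 arrangements. Replicates differed by more than counting noise (chi-square per gene from 5.77 to 41.6). The replicate numbers did not pair the libraries. Symbols and coordinates are those of GENCODE M21, and promoters those of RefSeq. The members and lists were chosen with earlier results of these data known. Named were the 10 largest rises and falls with a mean of at least 2 CPM, the 8 strongest genes of each class and direction, the called interaction genes, up to 4 members of each list by adjusted p, and 11 genes always named; other list members given with a value were chosen after their values were seen. The alternatives were other scalings, tests, filters and margins, the replicate block, and leaving out libraries. The scripts were tested on simulated data. Some results are not reported here.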

Additional observations from a re-analysis of the deposited data

Results flagged for a closer look

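A library apart from the other 8 of its group, by Dixon's gap at its 95% limit, was found in 25 of the 190 groups of values examined (13.2%), where chance gives about 1 in 20. In STZ-cKOt 9, Npas2 was at 57.59 CPM (others 39.67 to 45.34), Ugt1a10 at 171.7 (20.7 to 83.4), Depp1 at 53.84 (4.019 to 27.01), Gc at 136.5 (20.66 to 66.71), Ucp2 at 141.4 (54.1 to 89.17), C3 at 43.31 (8.586 to 18.02), and the summed skeletal muscle markers at 2.17 (0.9493 to 1.542). In STZ-cKOt 1, Akr1c6 was at 78.97 CPM (0 to 0.6781) and Slc7a12 at 87.76 (24.76 to 43.76). In STZ-cKOt 2, the summed markers were at 3152 CPM for the distal convoluted tubule (2295 to 2703), 541.5 for principal cells (349.6 to 441.3), 353.5 for intercalated cells (239.4 to 295.9) and 345.2 for endothelium (455 to 540.5). The neutrophil markers were at 4.17 CPM in STZ-cKOt 3 (1.099 to 1.953), and in STZ-cKOt 7 Ucp1 was at 0.9062 CPM (0 to 0.3597) and the mitochondrial share at 19.92% (14.16 to 16.77).

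In PBS-control 8, Ucp1 was at 106.7 CPM (0.3174 to 5.224), the adipocyte markers at 320.2 (44.7 to 153.6) and Ms4a6b at 1.239 (2.135 to 2.89). In PBS-control 1, Anks1b was at 10.51 CPM (3.776 to 6.405) and Ppard at 9.338 (12.27 to 14.48). PBS-control 3 had a mitochondrial share of 21.48% (14.55 to 17.4) and a share of reads mapped to several places of 37.8% (32.85 to 35.16). Fgg was at 15.05 CPM in PBS-control 9 (3.116 to 8.622), and Ugt1a10 at 1.19 CPM in PBS-control 7 (17.41 to 29.72).

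The STZ effect differed between genotypes by the edgeR interaction test in 7 genes. Their interactions, in log2, were −1.37 for Cdkn1a (adjusted p = 1.93e-05), −1.24 for Apoc3 (0.00405), −1.15 for Apoa4 (0.0105), −1.20 for Cyp2a4 (0.0233), −1.57 for Cyp2a5 (0.0388), −0.41 for Mcm2 (0.0388) and −0.86 for Ppard (0.0388). The STZ effects in controls and in cKOt were 3.37 and 2.01 for Cdkn1a and 0.83 and −0.41 for Apoc3. For Cyp2a4 they were −0.10 and −1.29.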

How the results depend on the processing

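Over 27 alternatives, 6413 of 6548 pairs of a named gene and an alternative kept the side of the threshold. Of these, the genes that passed in the main run also kept their direction. For genes that did not pass, a change of sign was not counted, and C3 and Col1a1 were among those whose sign changed. The difference of Akr1c6 reversed, from 4.51 log2 to −0.47 with DESeq2, −0.49 with voom and −0.51 without STZ-cKOt 1; leaving out any other of the STZ-cKOt and PBS-control libraries gave up to 4.68. With voom, 257 genes were higher and farther out, 524 opposed with a genotype effect downward, and 316 of that sign cancelled. Without a filter on low counts the last 2 counts were 218 and 104, 350 of the 504 genes farther out and 208 of the 338 cancelled were kept, and the split of all calls was 2368 higher and 1969 lower. With a margin of 1.2-fold, 69 genes with a genotype effect downward were cancelled, and with 1.5-fold 273.

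Leaving out 1 of the 18 libraries gave 2140 to 2369 genes higher and 2084 to 2294 lower. Genes farther out numbered 108 (without STZ-cKOt 9) to 208 (without STZ-cKOt 6) higher and 270 to 412 lower; 381 to 490 of the 504 were kept. Additive genes numbered 330 to 398 higher and 535 to 649 lower. Opposed genes numbered 203 to 231 with a genotype effect upward and 287 to 336 downward, and cancelled genes 142 to 165 and 146 to 178; 267 to 293 of the 338 were kept. Without the 4 libraries that stood apart 2897 genes were higher and 2528 lower, with 361 of the 504 and 294 of the 338 kept. Without the library labelled STZ-control 2 these were 468 and 292.

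Replicates with the same number did not deviate together (median correlation 0.0591, from −0.31 to 0.638; 1 of 9 PBS-control libraries matched the STZ-cKOt library of its own number best). With the replicate number as a block, 2309 genes were higher and 2340 lower, 169 and 369 farther out, 375 and 655 additive, 241 and 351 opposed, and 174 and 196 cancelled. Small counts per gene and the width of the 1.3-fold margin against the SE limit what can be called cancelled.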
